A study of Mus musculus with 2 samples.

Results

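The haematopoietic growth factor receptors described here are 8 genes: the cytokine receptor genes Csf3r, Csf2ra, Csf2rb, Csf2rb2 and Epor, and the receptor tyrosine kinase genes Csf1r, Kit and Flt3. They were chosen as a receptor family by gene symbol, with earlier results of these data known, and are read on every probe set of the array that is assigned to exactly 1 of these genes. This gave 13 of the 45101 probe sets and 8 of the 18194 genes that have a probe set of their own. The cells were neutrophils from the bone marrow of C57BL/6 mice, an inbred strain, sorted by flow cytometry as DAPI-negative (live), Gr-1-high and CD48-negative cells. The sort was done in 2 independent experiments, and RNA of each was hybridised to 1 Affymetrix expression array, called replicate 1 and replicate 2. There was 1 group, with no treatment. The number and age of the mice, and any pooling of animals, are not stated in the labels.

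Growth factor receptors let marrow cells respond to the secreted factors that keep them alive and drive their division and maturation. The cytokine receptors have no enzyme of their own and signal through JAK kinases and STAT factors bound to their cytoplasmic tails. The receptor tyrosine kinases carry a kinase domain and signal largely through RAS and PI3K. Csf3r, the receptor for G-CSF, is the main receptor of neutrophil production, Csf1r marks the monocyte and macrophage lineage, and Kit and Flt3 are known as receptors of stem and progenitor cells.

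The values are MAS5 signals, a linear brightness per probe set with the trimmed mean of each array set equal before deposit. A signal counted as above background where it passed, on both arrays, the 95th percentile of 85 probe sets of 77 smell, pheromone and taste receptor genes. This set the threshold at 109 for replicate 1 and at 133 for replicate 2. Any probe set past it put its gene above background, and the brightest probe set gave the gene's level. Differences subtract the log2 signal of replicate 1 from that of replicate 2. Having 1 array per experiment, they carry no test, and their precision is limited by the number of arrays. Probe sets bind with different strengths, so the signal of a gene was not ranked against that of another gene. Markers of the labelled cell type were read on both arrays. All 9 measured neutrophil markers were above background, including the granule protein genes Ltf (signals 18878 and 33399 on replicates 1 and 2) and Camp (26404 and 39049). This does not show how uniform the sorted cells were, or that the 2 arrays held the same mix of cells.

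For the members, the stretch just before the transcription start was searched for short letter strings of factors known to act on myeloid, erythroid and progenitor genes. Promoters from RefSeq (build GRCm38.p6) were used for 6 of the 8 genes; those of Csf2rb and Csf1r were not used here. The strings were GAGGAA, the core of sites bound by PU.1 and other ETS factors, TTNNGNAA for C/EBP factors, AGATAA for GATA factors and TGTGGT for RUNX factors, each on both strands. Below are the 250 bases before the start of Csf3r (chr4:126024409-126024658, plus strand) and Csf2rb2 (chr15:78305722-78305971, minus strand), both of lower signal on replicate 2, of Kit (chr5:75574737-75574986, plus strand), of higher signal there, and of Epor (chr9:21963577-21963826, minus strand), the gene whose 2 signals lay closest. They read 5′ to 3′ on the strand of the gene, and capitals mark the matches.
Csf3r: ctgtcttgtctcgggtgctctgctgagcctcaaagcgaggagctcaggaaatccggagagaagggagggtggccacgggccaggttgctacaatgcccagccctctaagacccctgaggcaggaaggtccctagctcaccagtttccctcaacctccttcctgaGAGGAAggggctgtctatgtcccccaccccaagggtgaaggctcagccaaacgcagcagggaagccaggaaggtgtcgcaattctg
Csf2rb2: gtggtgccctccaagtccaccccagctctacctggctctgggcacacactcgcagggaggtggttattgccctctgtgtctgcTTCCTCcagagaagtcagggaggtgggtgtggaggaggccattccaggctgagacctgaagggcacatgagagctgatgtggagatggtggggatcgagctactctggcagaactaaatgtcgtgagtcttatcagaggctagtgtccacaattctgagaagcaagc
Kit: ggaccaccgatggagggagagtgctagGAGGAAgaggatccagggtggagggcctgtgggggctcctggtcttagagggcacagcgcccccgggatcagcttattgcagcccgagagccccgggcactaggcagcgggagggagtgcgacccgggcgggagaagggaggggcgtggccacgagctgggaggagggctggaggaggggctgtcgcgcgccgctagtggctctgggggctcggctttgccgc
Epor: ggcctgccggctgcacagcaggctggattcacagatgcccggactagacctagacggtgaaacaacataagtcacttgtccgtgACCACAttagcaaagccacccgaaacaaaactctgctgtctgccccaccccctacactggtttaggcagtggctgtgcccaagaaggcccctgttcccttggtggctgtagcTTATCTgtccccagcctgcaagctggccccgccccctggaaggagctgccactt
The GAGGAA string began 86 bases before the start of Csf3r and 223 before that of Kit, and lay on the opposite strand in Csf2rb2. Csf2ra held it at 14 and 8 bases before its start, with a TTNNGNAA match on the opposite strand at 31. Epor held AGATAA and TGTGGT on the opposite strand and no GAGGAA, and Flt3 held none of the 4 strings. No match overlapped one of another string. Of 32851 promoter windows of the same length, 23.3% held GAGGAA, 36.8% TTNNGNAA, 9.99% AGATAA and 14% TGTGGT, so the strings are common, and a match describes letters and not a bound site.

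Of the 8 receptor genes, 7 were above background on both arrays, all except Flt3, beside 40.2% of all genes. Of their 13 probe sets 11 were, beside 32.3% of all probe sets. The genes with probe sets above background included every cytokine receptor of the set. The 2 probe sets that were not above background, 1 of Kit and the only one of Flt3, were so on neither array.

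**Figure D1:**
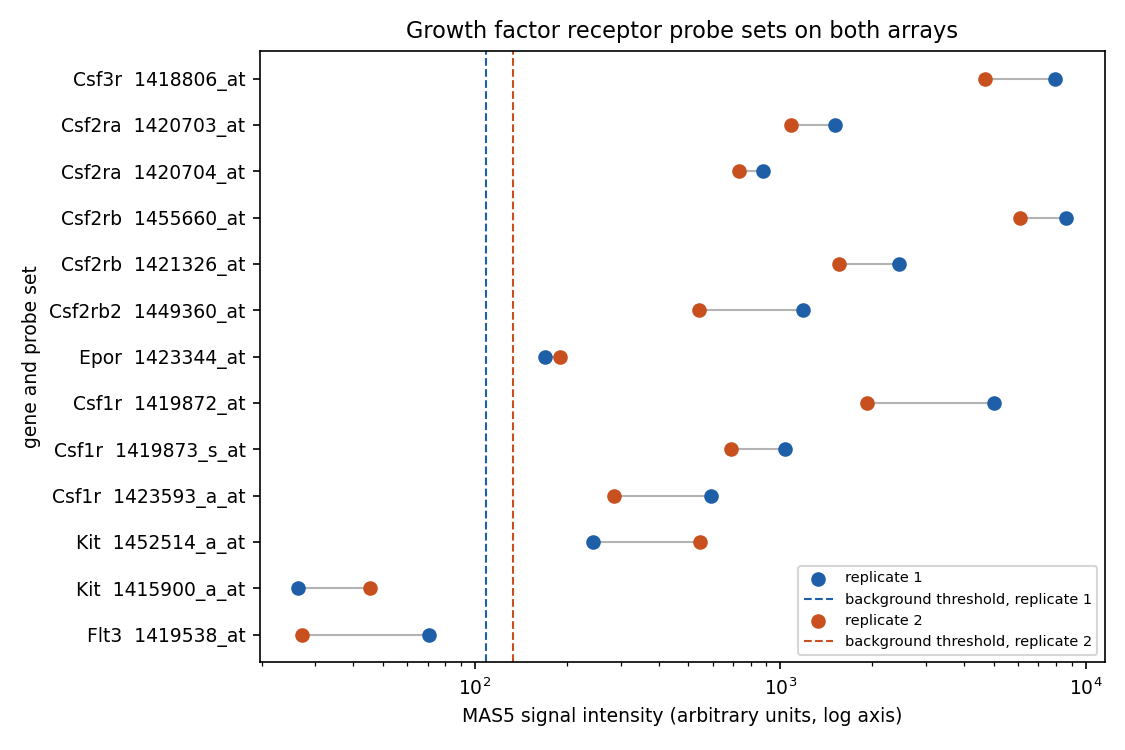
MAS5 signal (arbitrary units, log axis) of the 13 receptor probe sets on replicate 1 (blue) and replicate 2 (orange), 1 array each, with a grey line joining the arrays and a dashed line at the background threshold of each array. The probe sets of Csf3r, Csf2ra, Csf2rb, Csf2rb2 and Csf1r lie above both thresholds with replicate 1 to the right, the Kit probe set above the thresholds has replicate 2 to the right, and the Flt3 probe set and the other Kit probe set lie below both thresholds.

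The G-CSF receptor gene Csf3r, whose product carries the signal that drives granulocyte production and release from the marrow, had signals of 7951 on replicate 1 and 4670 on replicate 2 on its single probe set. Its level was a log2 signal of 12.57 ± 0.54 (SD, n = 2). Both signals lay far above the thresholds, and replicate 1 was the higher by 1.70-fold (log2 difference -0.77).

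The receptor for GM-CSF is built from a ligand-binding alpha chain, encoded by Csf2ra, and a signalling beta chain, encoded by Csf2rb, which the receptors for interleukin 3 and interleukin 5 share. The brighter Csf2ra probe set had signals of 1508 and 1085 on replicates 1 and 2, a level of 10.32 ± 0.34 (SD, n = 2). Its other probe set had 881 and 734. Both probe sets were higher on replicate 1, by 1.39-fold and 1.20-fold; scaled to the hybridisation controls, the brighter differed by -1.20 on the log2 scale. The brighter Csf2rb probe set had 8647 and 6091, a level of 12.83 ± 0.36 (SD, n = 2), and the other had 2453 and 1559. Here too replicate 1 was the higher on both probe sets, by 1.42-fold and 1.57-fold.

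Csf2rb2 encodes a beta chain of mice that serves interleukin 3 alone and is closely similar to the product of Csf2rb, its neighbour in the genome, with 0 annotated genes between them. Its own probe set had signals of 1188 and 541, a level of 9.65 ± 0.80 (SD, n = 2). Both signals passed the thresholds, and replicate 1 was the higher by 2.20-fold. A further probe set is assigned to both beta chain genes and was left out. Because the genes are closely similar copies, how much RNA of the one binds to the probe sets of the other was not tested, and the separate values of Csf2rb and Csf2rb2 are uncertain to that extent.

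Epor, the erythropoietin receptor gene, known from red cell precursors, had signals of 170.0 and 189 on its single probe set, a level of 7.49 ± 0.11 (SD, n = 2). Its signals stood only a little above the thresholds and differed by 1.11-fold, with replicate 2 the higher (log2 0.16), a direction that turned (-0.57) when the arrays were scaled to the hybridisation controls. With the 99th percentile as threshold (137 and 217) Epor was not above background. Of 5 measured erythroid markers 1 was above background on both arrays, the red cell transcription factor gene Klf1 (196 and 144). The globin gene Hba-a1 was above it on neither array on its own probe set (49.0 and 50.2). Slc4a1 (120.2 and 91.5) passed the threshold of replicate 1 alone, and Alas2 (108.6 and 95.5) lay at that threshold. The summed signal of the 5 markers was 493 on replicate 1 and 445 on replicate 2, and none was at 0. Their part in the Epor signal was not tested.

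Csf1r, the receptor for M-CSF and interleukin 34, was above background on all 3 of its probe sets. The brightest had signals of 5020 on replicate 1 and 1928 on replicate 2, a level of 11.60 ± 0.98 (SD, n = 2), and was 2.60-fold higher on replicate 1. The second had 1036 and 688 (1.51-fold) and the third 592 and 284 (2.08-fold). All 3 were higher on replicate 1, but they spanned 0.79 on the log2 scale in the size of the difference. Among 2980 genes with at least 2 probe sets above background the median span was 0.35, and Csf2ra and Csf2rb spanned 0.21 and 0.15. In sorted cells measured in bulk, fewer cells of a type and less RNA per cell cannot be told apart.

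Markers of monocytes and macrophages were measured beside Csf1r. Of 8 monocyte markers 3 were above background, Ccr2 (157 and 220), F13a1 (264 and 231) and Ace (181 and 148), with a summed signal over the 8 of 945 and 921. Of 8 macrophage markers 3 were above it, Adgre1, which encodes the F4/80 antigen, C1qb and Vcam1, with a summed signal of 1390 and 872. Adgre1 had signals of 627 and 217 and was 2.89-fold higher on replicate 1. C1qb (256.3 and 163.5) was 1.57-fold higher there, and Vcam1 (260.0 and 255.4) differed little. The complement gene C1qa, at 104 and 7.45, was above background on neither array. Nor were Mertk (13.3 and 76.7) and Timd4 (3.26 and 60.3), whose signals were higher on replicate 2. The macrophage marker Cd163 (120.9 and 82.5) and the monocyte marker Cx3cr1 (164.9 and 103.8) were above background on replicate 1 alone. No marker of either list was at 0. The part of monocytes or macrophages in the Csf1r signal was not tested.

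Kit, the receptor for stem cell factor, was read differently by its probe sets. One had signals of 244 on replicate 1 and 547 on replicate 2, above background on both arrays, a level of 8.51 ± 0.82 (SD, n = 2), and was 2.24-fold higher on replicate 2. The other had 26.4 and 45.2, below background on both, so it gives no fold. Both carry the suffix of probe sets that match several transcripts of 1 gene, and which transcripts each binds was not tested. Read on the median of its probe sets, Kit was not above background.

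Of 6 measured progenitor markers 0 were above background on both arrays, with Cd34 at 3.01 and 8.29 and Meis1 at 97.7 and 77.0. Hlf (90.8 and 157.7) and Slamf1 (38.0 and 179.6) were above it on replicate 2 alone. The summed signal of the 6 markers was 280 on replicate 1, where each was below the threshold, and 552 on replicate 2. Mast cells also carry Kit, and of 5 mast cell and basophil markers 0 were above background on both arrays, with Cpa3 at 63.4 and 47.4, Mcpt8 at 9.01 and 10.7 and summed signals of 143 and 200.4. Of 4 genes of early granulocytes 0 were above it on both arrays, though Mpo, the myeloperoxidase gene (98.2 and 187), was above it on replicate 2, and Elane, the elastase gene (57.7 and 39.2), on neither. No marker of these lists was at 0. Genes of dividing cells differed in the same direction as Kit. Of 6 such genes 5 were above background on both arrays, and each of these was over 2-fold higher on replicate 2: Mki67 (212 and 2149), Top2a (190 and 1402), Rrm2 (181 and 1524), Ccnb2 (126 and 659) and Birc5 (150 and 529). The sixth, Cdk1, was above background on replicate 2 alone (68.2 and 705), at least 6.49-fold higher there. Their part in the Kit signal was not tested.

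Flt3, the receptor for FLT3 ligand, on dendritic cell and lymphoid precursors as well as multipotent progenitors, gave signals of 70.8 and 27.1, which passed the threshold on neither array. A signal below the threshold sets only a bound, and no fold between the arrays is given. Of 5 measured dendritic cell markers 2 were above background on both arrays, Zbtb46 (127 and 133) and Cd74 (249 and 203). Itgax (174.1 and 129.7) and Xcr1 (111.4 and 17.4) were above it on replicate 1 alone, and Siglech (93.6 and 15.6) on neither. The summed signal of the 5 markers was 755 and 499. Among the other marker lists 1 of 4 eosinophil genes was above background on both arrays (Siglecf, 339 and 311), while Prg2 was not (35.3 and 60.0). So was 1 of 6 B cell genes (Igll1, 173 and 167), while Cd79a (17.6 and 111) and Cd79b (12.8 and 76.4) were not. Ms4a1 (72.6 and 158.1) and Pax5 (88.8 and 174.0) were above it on replicate 2 alone, and the summed signal of the B cell genes was 393.7 and 761.6. Of the 6 T and NK cell genes 1 was above it on both arrays (Cd3d, 433 and 374), while Cd3e was not (15.0 and 7.92). Of 25 genes of other organs 1 was (Pvalb), and the liver genes Alb (19.2 and 14.9) and Apoa2 (19.4 and 6.27) were not.

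The comparison between the experiments covered the 7 receptors above background. Of these 5 were lower on replicate 2 (Csf3r, Csf2ra, Csf2rb, Csf2rb2 and Csf1r), beside 43.6% of 7301 genes read above background on both arrays, and 2 were higher (Kit and Epor), beside 56.4%. Differences over 2-fold were seen for 3 receptors, beside 5.29% of all genes in either direction. They were Csf2rb2 and Csf1r, higher on replicate 1, beside 1.93% of all genes, and Kit, higher on replicate 2, beside 3.36%. The median difference of the 7 receptors was -0.51 on the log2 scale, against 0.07 for all 7301 genes, whose SD was 0.50. Among those genes 42 had a difference below that of Csf1r (-1.38), 92 below that of Csf2rb2 (-1.14) and 317 below that of Csf3r (-0.77), and 132 had one above that of Kit (1.16). At the level of probe sets, 9 of the 11 above background were lower on replicate 2. The 5 lower genes were lower and Kit was higher under median, quantile and hybridisation control scaling too. Kit was no longer over 2-fold with the control scaling (0.44), where Csf3r (-1.49), Csf2ra (-1.20) and Csf2rb (-1.23) passed 2-fold. Read on the median signal of its probe sets on each array, Csf1r was not over 2-fold (-0.59) and Kit was not above background. For Csf1r that median is the signal of the probe set that differed least (1.51-fold). Its other probe sets differed by 2.60-fold and 2.08-fold. Other genes differed between the arrays as well. Of the 9 neutrophil markers 8 were higher on replicate 2 (median 0.56), a lean not seen with quantile normalization (4 of 9, median -0.01) or control scaling (3 of 9, median -0.16). All 5 genes of dividing cells above background were over 2-fold higher on replicate 2 under each of these scalings (median 2.89 as deposited). Their part in the receptor differences was not tested. Among all genes, over 2-fold differences in favour of replicate 2 and of replicate 1 numbered 245 and 141, and moved to 158 and 230 with median scaling, and to 32 and 1536 with scaling to the hybridisation controls, which shifted the median of all genes to -0.65.

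**Figure D2:**
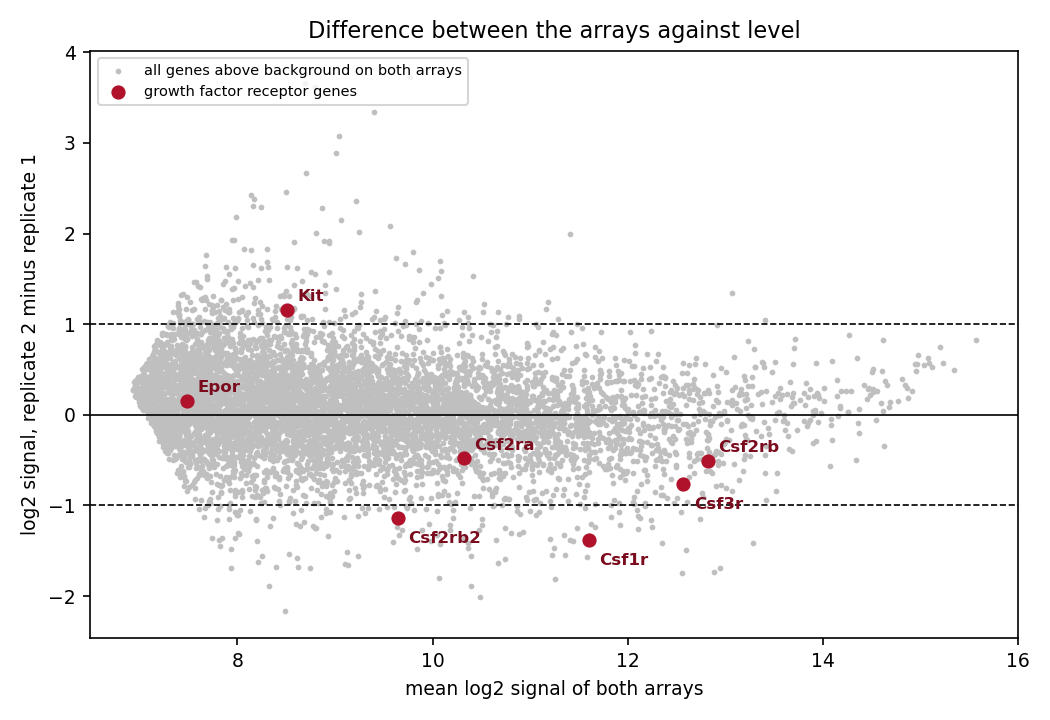
Difference between the arrays (log2 signal, replicate 2 minus replicate 1) against the mean log2 signal of both arrays for 7301 genes above background on both (grey) and the 7 receptor genes among them (red); dashed lines mark 2-fold. Csf1r and Csf2rb2 lie below the lower dashed line, Kit above the upper one, and Epor close to 0 near the dim end.

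Genes on either side of the receptors in the pathway were read from lists of ligands, related receptors, kinases and STAT factors, adaptors, negative regulators, induced genes and regulators of the receptor genes. Of 55 measured genes 37 were above background, beside 40.2% of all genes. Among the ligand genes 1 of 7 was, Csf1, the gene for M-CSF (246 and 199), while Csf3, the gene for G-CSF, was not (21.2 and 12.9). Of the related receptors 1 of 6 was above it, Il6ra, the interleukin 6 receptor alpha chain gene, with 1644 and 908; it was named after its values were seen. The alpha chain genes that pair with the beta chains for interleukin 3 and interleukin 5, Il3ra (76.1 and 48.0) and Il5ra (10.8 and 9.0), were not above background on either array.

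Most of the signalling genes were above background. Of the kinases and STAT factors 8 of 9 were, including Jak1 (4186 and 3488) and Jak2 (1096 and 916), which serve the cytokine receptors. Of the adaptors towards RAS and PI3K 8 of 8 were, including Grb2 (2103 and 1776) and Shc1 (150.2 and 213). Of the transcription factors that act on the receptor genes 4 of 7 were, including Spi1, the gene of PU.1 (1171 and 1056), and Cebpa (156 and 174), while the genes of the GATA factors, Gata1 and Gata2, were not on both arrays.

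Feedback and induced genes held the pathway genes that differed most between the arrays. Of the negative regulators 9 of 10 were above background. Socs3, which limits G-CSF receptor signalling, had signals of 4776 and 2078 and was 2.30-fold higher on replicate 1, while Socs2 (190 and 181) differed little and Socs1 (8.70 and 7.21) was not above background. Of the induced genes 6 of 8 were above it. Pim1, a survival kinase gene induced through STAT factors, had 3046 and 1239 (2.46-fold higher on replicate 1), and Cebpb, a transcription factor gene of emergency granulopoiesis, had 6491 and 2986 (2.17-fold), while Pim2 (133 and 101) was not above background on both arrays. These 3 genes were the pathway genes over 2-fold higher on replicate 1, and 0 were over 2-fold higher on replicate 2. Under each of the scalings tried Socs3, Pim1 and Cebpb stayed over 2-fold higher on replicate 1.

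Over the whole pathway 26 of the 37 genes above background were lower on replicate 2, with a median difference of -0.19, beside 43.6% lower and a median of 0.07 for all genes. With median scaling the count was 30, beside 55.4% of all genes, and with hybridisation control scaling 36, beside 91.8%. The chemokine receptor gene Cxcr2, a neutrophil marker outside these lists, was also over 2-fold higher on replicate 1 (7212 and 3224).

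**Figure D3:**
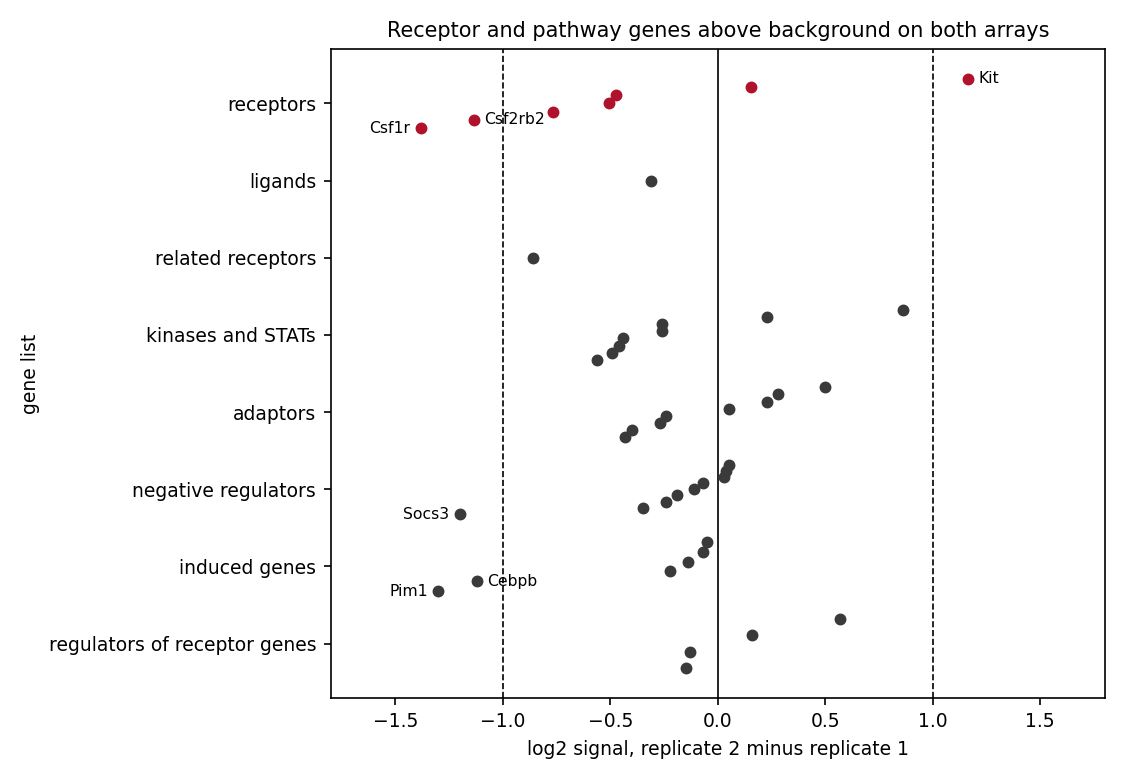
Difference between the arrays (log2 signal, replicate 2 minus replicate 1) for the receptor genes (red) and the pathway genes (black) above background on both arrays, 1 point per gene and 1 row per list; dashed lines mark 2-fold and genes past it are named. Socs3, Pim1 and Cebpb lie left of the lower dashed line with Csf1r and Csf2rb2, and Kit is the only point right of the upper one.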

How the data were processed

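RNA of sorted bone marrow neutrophils from 2 experiments was measured on 1 array each. The deposited values are linear signal intensities from the authors, for which the submitters' processing notes name MAS5; its version and settings are not stated there, and no detection calls were used. MAS5 multiplies each array by 1 factor, and differences between the arrays depend on that factor. GEO's platform annotation gave 1 gene for 34958 probe sets, several for 932 and none for 9211; all 8 members matched the NCBI mouse gene table (GRCm38.p6) by identifier and kept their symbols.

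Signals were floored at 1 and log2-transformed in Python 3.11.15 (numpy 2.4.6, pandas 2.3.3), and levels are the mean ± SD of 2 arrays. Where a gene is not above background on the dimmer array, a fold would only be a bound. The members and lists were chosen with earlier results of these data known. The text names all members, the first 2 measured genes of each list it describes and each list gene above background on both arrays and over 2-fold different between them; other named genes were chosen after their values were seen. Motifs were searched by exact letters. The alternatives were other background percentiles and genes, other scalings, 32 added to the signal, fewer probe sets, the median of a gene's probe sets, no background filter and each array alone.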

Additional observations from a re-analysis of the deposited data

How the results depend on the processing

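The number of receptors above background was 7, and it was 6 with the 99th percentile as threshold (without Epor) and with the median of each gene's probe sets (without Kit); it was 7 under each other alternative, on each array alone included. The number of receptors over 2-fold different between the arrays, 3, became 5 with scaling to the hybridisation controls, where Csf3r, Csf2ra and Csf2rb joined Csf1r and Csf2rb2 and Kit dropped to 0.44. It became 1 with the median signal of a gene's probe sets on each array, where Csf2rb2 remained. There Csf1r stood at -0.59, the value of its least different probe set, and Kit was not above background. The number became 4 with no filter on background, which let Flt3 in. Scaling to the controls moves every gene by the same amount (the median of all genes was -0.65). Of 42 log2 differences recomputed, 1 changed sign, that of Epor with the control scaling (-0.57), 8 moved by more than the SD of all genes (0.50) and 34 by less. Part of the 34 was fixed beforehand. Median scaling shifts every gene by the same small amount, and leaving out probe sets did not touch the brightest ones of the receptors. A gene with 1 probe set keeps its value when the median of its probe sets is taken. Of 56 levels recomputed 4 moved by more than their SD. The rest is no measure of stability, because much of it was fixed beforehand. A level from 1 array alone always lies within the SD of both arrays. Median scaling leaves the mean of both arrays nearly unchanged, and the setting with fewer probe sets removed the brightest probe set of no receptor. The pathway genes above background numbered 37, and 30 to 40 under the alternatives. No paired analysis was possible because there is 1 group. With 1 array per experiment, no difference has a replicate check.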

Other observations

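The probe set assigned to both Csf2rb and Csf2rb2, left out of the receptor values, had a signal of 215 on replicate 1, above background, and 98.7 on replicate 2, below it.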
